A study of Sus scrofa with 15 samples.

Results

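Mitochondria carry their own small genome, and the 48 genes described here comprise what that genome encodes as protein together with nuclear genes that copy, transcribe, process and translate it. They were chosen by gene symbol from the 22516 genes of the pig oocyte gene table, and the rule used no expression value. 13 are mitochondrially encoded mRNAs (mt-mRNAs) and 35 are nuclear: 9 for transcription of mitochondrial DNA (mtDNA), 6 for its replication, 12 for processing and stability of mitochondrial RNA and 8 for mitochondrial translation.

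Pig oocytes were compared across maturation in 15 bulk RNA-seq libraries of polyA RNA, 5 in each of 3 groups. GV oocytes, arrested at the germinal vesicle stage, came from fresh follicles and were not cultured. MII and 'damaged' oocytes both came from cumulus oocyte complexes matured in vitro for 44 h, and were told apart only by a first polar body, which was present in MII and absent in 'damaged'. According to the methods, sow ovaries came from an abattoir, cumulus cells were removed with hyaluronidase in every group, and oocytes of every group were taken in 5 independent collections. A library is read here as a pool of the oocytes of 1 collection, so p-values measure the spread between such pools. MII and 'damaged' libraries together are called MIX. GV replicate 3, which has the lowest total count, was kept apart from the comparisons.

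Mammalian mtDNA is transcribed from both strands into long precursors by the polymerase POLRMT with its factors TFAM and TFB2M. The precursors are cut at their tRNAs, the released mRNAs are given short polyA tails by MTPAP and held stable by the LRPPRC and SLIRP complex, and a dedicated ribosome translates them into core subunits of the respiratory chain and ATP synthase. Oocytes are among the most mitochondria-rich cells, and with the nucleus of a fully grown oocyte largely silent, nuclear-encoded mRNAs change mainly by storage, tail lengthening or shortening, and decay.

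Total counts ranged from 6400412 in GV replicate 3 to 23568633, and were 11961151 or more in the other 14 libraries. Members were tested in a limma-voom fit over the 13230 genes that passed the filter on low counts, with Benjamini-Hochberg adjustment (FDR) over all of them. 47 of the 48 members were tested. TFB2M was not, with 0.0668 to 0.942 normalised counts-per-million (CPM) in the 14 libraries. Normalised CPM are CPM of a library size scaled by the trimmed mean of M-values (TMM), which takes most genes to be unchanged. The TMM factors were 1.35 to 1.73 in GV libraries and 0.794 to 0.922 in MIX libraries. Over the whole of the tested genes the median log2 fold change, MIX over GV, was -0.16 with TMM and -1.06 when libraries were scaled by their totals alone, and changes are read against these medians. Oocyte markers summed to between 11014 and 12722 normalised CPM in GV, 6727 and 9721 in MII, and 8549 and 10140 in 'damaged'. Of 15 cumulus and granulosa markers, 11 had a row and 4 were tested, and the sum of those with a row was 11.0 to 15.8 normalised CPM in GV, 17.4 to 27.7 in MII and 21.7 to 28.1 in 'damaged', of which FST made up 6.48 to 24.9. The part of these cells in the results was not tested.

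The comparison of MIX with GV asked which genes change during maturation in vitro. Of the mt-mRNAs, 11 of 13 were higher in MIX at FDR below 0.01 by limma-voom with TMM scaling, against 30.3% of all genes tested. When only genes at 10 CPM or more were kept, 6 of 13 were called higher, beside 2658 of 7465 genes. When libraries were scaled by their totals 0 of 13 were, beside 12.1% of all genes. With replicate number as a block in the fit, 13 of 13 were called higher with TMM, beside 4088 of 13230 genes. The block with library totals gave 3 of 13, beside 1647 of 13230 genes. The nuclear members split, with 12 higher, 13 lower (37.2% of all genes were lower) and 9 not called of 34 tested. Of the 13 lower, POLG and POLRMT reached the filter's count in no MIX library and MTERF4 in 1. These 3 were tested through their GV values, which favours a fall in MIX, so their folds are descriptions and the counts that hold them support nothing. The median log2 fold change of the mt-mRNAs was 1.07 with TMM and 0.18 with library totals, which was 1.24 and 1.23 above the median of all genes on the respective scale. The median of the nuclear members was 0.07 and -0.84, which was 0.23 and 0.22 above it. In pooled bulk RNA, more molecules per oocyte, a smaller loss than in other mRNAs and a longer polyA tail that is copied better cannot be told apart.

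Subunits of complex I (NADH dehydrogenase) make up 7 of the mt-mRNAs, and 6 of them were called higher, beside 30.3% of all genes. ND6, the only mRNA of the group encoded on the light strand (MT:14739-15266), was at 107, 147, 162 and 123 normalised CPM in GV replicates 1, 2, 4 and 5, and at 173, 361 and 569 (lowest, median and highest) in the 10 MIX libraries. Every MIX library lay above every GV library, with a log2 fold change of 1.24 (SE 0.28, FDR 0.000521). ND6 overlaps the end of ND5 on the other strand, and the counting was not stated to use strand. Reads from the shared bases cannot be assigned to either gene, nor reads from the rest of ND6 to a strand. ND3 (MT:10653-10998) was at 30.5, 63.1, 37.9 and 39.6 in GV and at 51.7, 110 and 150 in MIX, a log2 fold change of 1.24 (SE 0.24, FDR 8.58e-05) with overlap, since GV replicate 2 lay above the lowest MIX library.

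The other complex I mRNAs also overlapped between the groups. ND2 (MT:5087-6128) was at 642 to 880 in GV and 787 to 2324 in MIX, with a log2 fold change of 0.94 (SE 0.23, FDR 0.000863). ND4 (MT:11359-12736) was at 795 to 1239 and 967 to 3181, with a log2 fold change of 0.99 (SE 0.28, FDR 0.00299). ND5 (MT:12935-14755) was at 469 to 685 and 645 to 2011, with a log2 fold change of 1.00 (SE 0.27, FDR 0.00213). In each of the 3 the lowest MIX values reached into the GV range although the MIX medians lay above it. ND4L (MT:11069-11365), which shares its end with the start of ND4, was at 62.2 to 178 in GV and 83.7 to 371 in MIX, with a log2 fold change of 1.07 (SE 0.35) and an FDR of 0.00894, and its call was lost without any of 9 libraries, each left out alone. ND1 (MT:3922-4876), the most upstream of these genes, was at 651, 829, 802 and 598 in GV and 589, 1173 and 1716 in MIX, and was not called (log2 fold change 0.50, SE 0.25, FDR 0.0748). With library totals its value turned to -0.40. With the replicate block and TMM, ND1 was called.

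The single mt-mRNA of complex III, CYTB (MT:15342-16481), which encodes cytochrome b, had the highest log2 fold change of the 13, at 1.42 (SE 0.28, FDR 0.000126). It was at 558, 719, 836 and 591 normalised CPM in GV and at 910, 2337 and 2700 in MIX. The groups did not overlap.

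COX1, COX2 and COX3 encode the catalytic core of complex IV (cytochrome c oxidase). COX1 (MT:6511-8055), the most counted of all the members, was at 6214, 8087, 7790 and 6291 normalised CPM in GV and at 11253, 17680 and 23496 in MIX. Its groups were apart and its log2 fold change was 1.26 (SE 0.19, FDR 4.88e-06). COX3 (MT:9800-10583) was apart as well, at 1767, 2500, 2184 and 1830 in GV and 3176, 5021 and 6408 in MIX (log2 fold change 1.19, SE 0.19, FDR 9.42e-06). COX2 (MT:8203-8890) was at 1811, 2199, 2426 and 1741 in GV and 1718, 3542 and 4548 in MIX, overlapped, and was not called (log2 fold change 0.58, SE 0.24, FDR 0.0332). With library totals COX2 turned to -0.32, while COX1 and COX3 stayed positive at 0.36 and 0.30 without being called. With the replicate block and TMM, COX2 was called.

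ATP6 and ATP8 encode subunits of complex V (ATP synthase) in overlapping reading frames. ATP8 (MT:8959-9162) was at 141, 158, 185 and 163 normalised CPM in GV and 213, 398 and 533 in MIX, with no overlap and a log2 fold change of 1.13 (SE 0.21, FDR 5.75e-05). ATP6 (MT:9120-9800) was at 2325, 3183, 2926 and 2521 in GV and 3053, 5566 and 7620 in MIX, so that GV replicate 2 lay inside the MIX range, and its log2 fold change was 0.87 (SE 0.22, FDR 0.00137) with TMM and -0.02 with library totals.

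**Figure D1:**
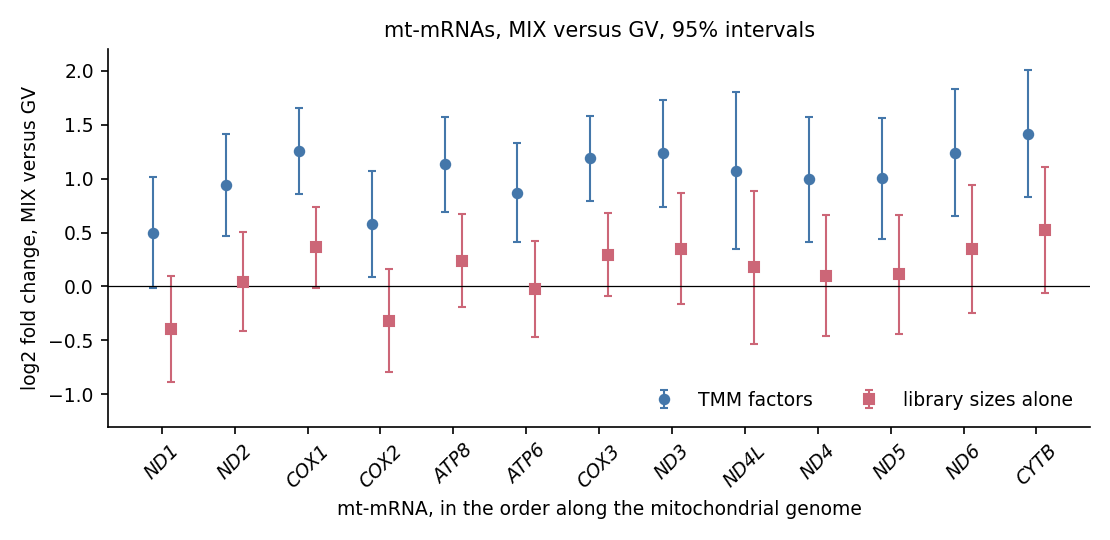
Log2 fold change (MIX over GV replicates 1, 2, 4 and 5) of the 13 mt-mRNAs in genome order, with 95% intervals from limma-voom; circles are the TMM fit and squares the fit on library totals. All 13 circles lie above 0 (0.50 to 1.42), and the squares lie between -0.40 and 0.52, with ND1, COX2 and ATP6 below 0.

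Without overlap, ND6, CYTB, COX1, COX3 and ATP8 (5 of 13) were higher in MIX, beside 24.3% of all genes, and with library totals 0 of 13 (9.55% of all genes). They come from complexes I, III, IV and V. ND6 is the only light-strand gene among them, and its reads cannot be assigned to a strand. Nuclear copies of mitochondrial sequence can share reads with any of the 13, and the counts hold no means to separate them.

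The share of a library's estimated counts that came from the 13 mt-mRNAs does not depend on a scaling factor between libraries. It was 2.12% in GV replicate 1 (Wilson 95% interval 2.12 to 2.13%, which covers counting error only), 3.29% in replicate 2, 3.11% in replicate 4 and 2.73% in replicate 5. In MII it was 4.54, 4.25, 2.38, 3.97 and 2.01% in replicates 1 to 5, and in 'damaged' 4.28, 4.04, 2.35, 3.07 and 2.59%. The groups overlapped: the 4 lowest MIX libraries were replicates 3 and 5 of both groups, all within or below the GV range. The means were 2.81% ± 0.513 (SD, n = 4) in GV, 3.43% ± 1.15 (n = 5) in MII and 3.27% ± 0.858 (n = 5) in 'damaged', and the MIX mean was 1.19 times the GV mean, a difference smaller than the spread between MIX libraries. As a share of transcripts-per-million (TPM), a per-length unit, the means were 7.72% ± 1.53 and 7.99% ± 2.18, a ratio of 1.03.

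The nuclear members summed to 1673 ± 358 (SD, n = 4) normalised CPM in GV and 3139 ± 297 (n = 10) in MIX. This sum depends on the TMM factors, which were higher in GV than in MIX libraries, so the rise is not read apart from the scaling. The members' median log2 fold change was 0.07 with TMM and -0.84 with library totals. Counts of mt-mRNAs were 11.2 ± 2.69 times those of the nuclear members in GV (7.45 to 13.7) and 12.7 ± 4.04 times in MIX (7.82 to 18.3), and the ranges overlapped.

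**Figure D2:**
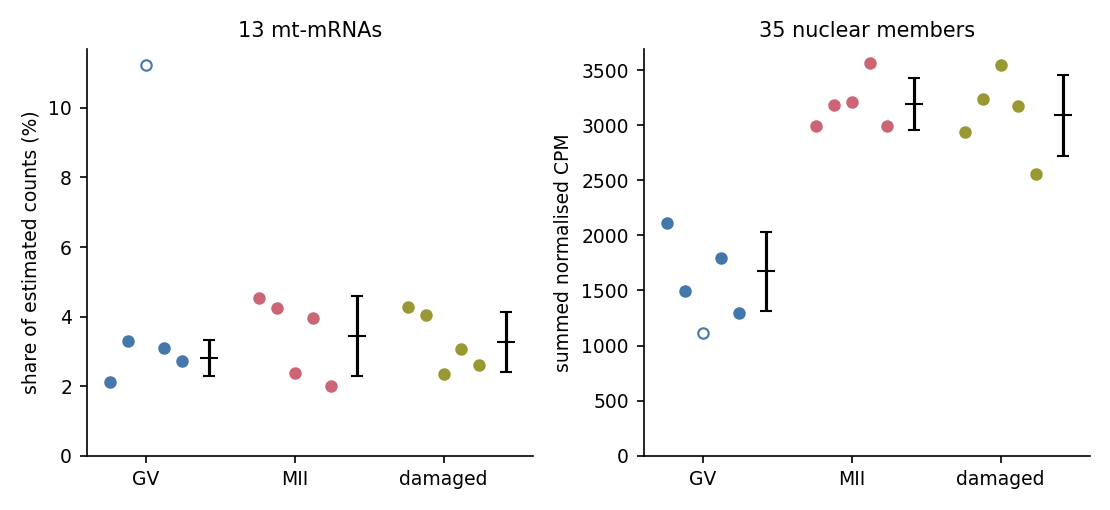
Left, percent of a library's estimated counts from the 13 mt-mRNAs, which needs no scaling factor. Right, summed normalised CPM of the 35 nuclear members, which depends on the TMM factors. Points are libraries, bars are mean ± SD without GV replicate 3, and the open circle is GV replicate 3, which sits at 11.2% on the left, above all other libraries (2.01 to 4.54%), and at 1112 on the right, below them.

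The balance among the mt-mRNAs differed without overlap between MIX and GV libraries in 3 of the 13. COX1 took 39.2% ± 0.593 (SD, n = 4) of mt-mRNA counts in GV and 44.5% ± 2.33 (n = 10) in MIX, where it ranged from 41.6 to 48.1%. COX2, encoded just downstream of it, went the other way, from 11.3% ± 0.549 to 8.01% ± 0.702 (6.72 to 8.83% in MIX). ND1 went from 3.97% ± 0.172 to 2.67% ± 0.243 (2.25 to 3.13%). These shares are independent of library scaling, are tied to each other because they sum to the whole, and are given without a test. The other 10 overlapped, among them ATP6 at 15.1% ± 0.653 and 13.1% ± 0.612 and CYTB at 3.72% ± 0.274 and 4.75% ± 0.715. ATP8 is given by counts only, since the effective length used for its TPM was 18.2 of 204 bases, which put it at 26.9% of mt-mRNA TPM but 0.900% of mt-mRNA counts in GV.

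**Figure D3:**
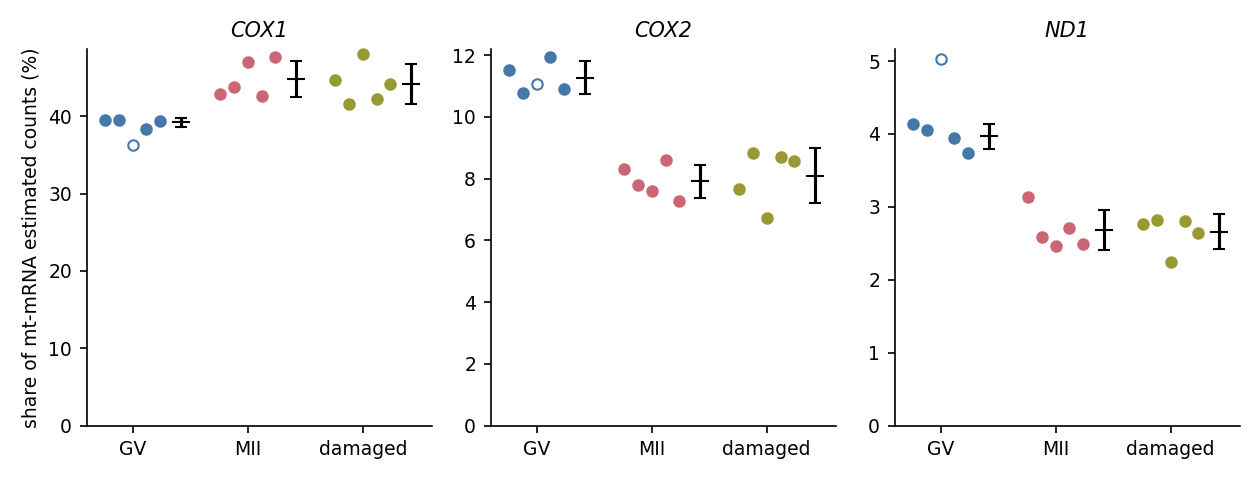
Percent of mt-mRNA estimated counts taken by COX1, COX2 and ND1 in each library; bars are mean ± SD without GV replicate 3, shown as an open circle. COX1 is higher in every MIX library than in any GV library, and COX2 and ND1 are lower; GV replicate 3 lies on the GV side of MIX in all 3.

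A differentially expressed gene (DEG) is one with an FDR below 0.01 and an absolute log2 fold change above 2, and 8 of the 34 nuclear members tested met both by limma-voom. FASTKD1, FASTKD2 and PNPT1 were upregulated (3 of 34, against 4.27% of all genes), and SLIRP, SSBP1, TUFM and ELAC2 downregulated. POLG, tested through its GV values, is the remaining downregulated DEG (5 of 34 with it, beside 16.7% of all genes, from which nothing is read). With library totals no member was an upregulated DEG (0.348% of all genes) and 10 were downregulated (28.6%), the same 5 with TFB1M, POLRMT, MTERF4, MTIF3 and MTRF1L. At FDR below 0.01 the nuclear members were then 8 higher (12.1% of all genes) and 20 lower (60.5%). With TMM 11 nuclear members were higher and 10 lower in MIX without overlap (24.3% and 29.4% of all genes), and with library totals 7 and 16 (9.55% and 49.6%).

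**Figure D4:**
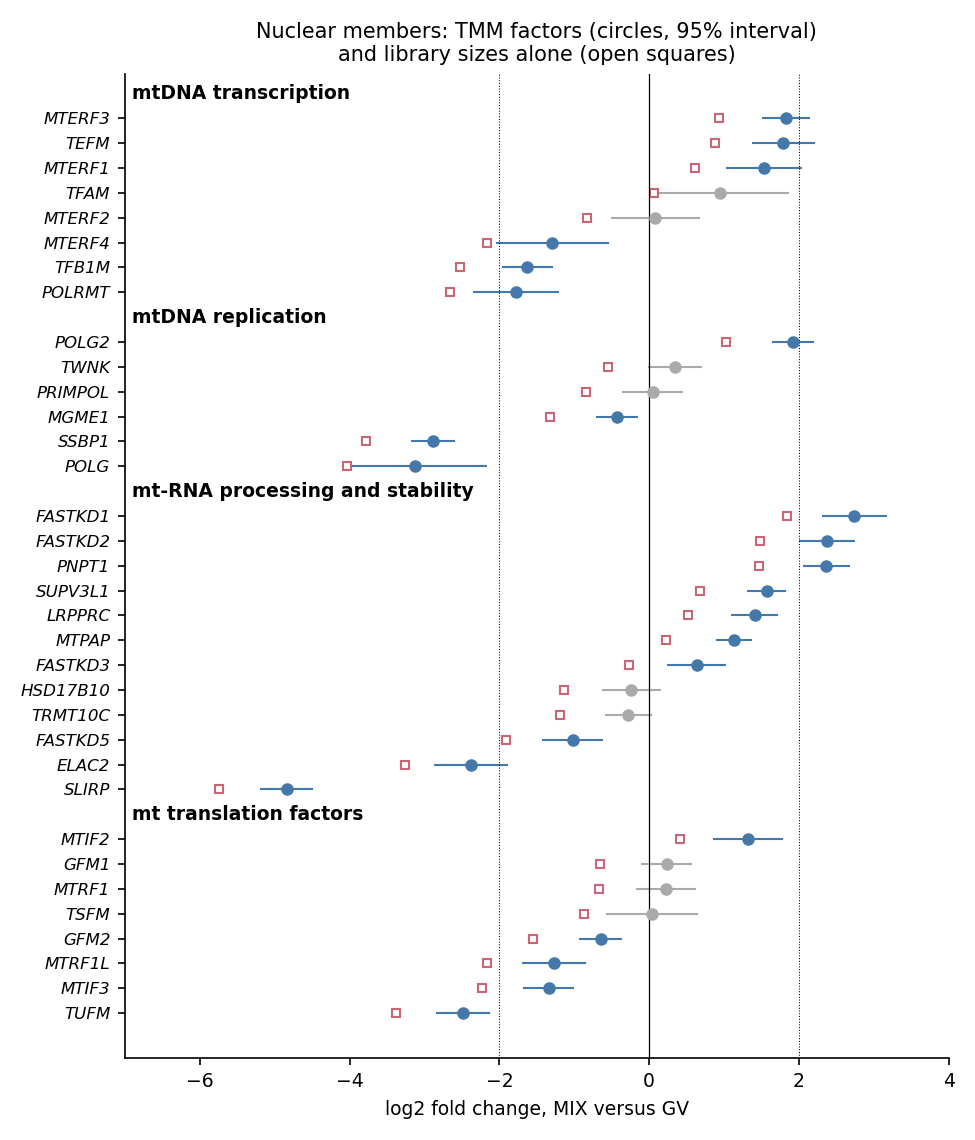
Log2 fold change (MIX over GV) of the 34 nuclear members tested, by role, with 95% intervals; blue circles have an FDR below 0.01 with TMM, grey circles do not, open squares are the fit on library totals, and dotted lines mark -2 and 2. Values range from -4.84 (SLIRP) to 2.74 (FASTKD1) with TMM, and the squares lie lower throughout.

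Among the 8 transcription genes tested, 3 were higher (TEFM, MTERF1 and MTERF3), 3 lower (TFB1M, and POLRMT and MTERF4, tested through their GV values) and 2 not called. Over all genes 30.3% were higher and 37.2% lower. With library totals 2 were higher and 4 lower, where 12.1% and 60.5% of all genes were. MTERF3 (ENSSSCG00000006090, chr4:40376146-40399614), a member of the family of mitochondrial transcription termination factors, was at 86.7, 53.3, 68.0 and 51.4 normalised CPM in GV and 178, 228 and 287 in MIX. All MIX libraries were above all GV libraries, with a log2 fold change of 1.82 (SE 0.15, FDR 9.51e-10; 0.93 with library totals). TEFM (ENSSSCG00000017741, chr12:42864582-42875705), the elongation factor of POLRMT, was at 22.6, 11.2, 13.8 and 7.04 in GV and 33.7, 44.4 and 49.5 in MIX, also apart (1.79, SE 0.20, FDR 7.53e-08; 0.88 with library totals, FDR 0.00016).

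The RNA polymerase gene POLRMT (ENSSSCG00000035693, chr2:77694271-77708099) was at 0.816, 1.66, 1.44 and 1.85 normalised CPM in GV and 0.300, 0.377 and 0.600 in MIX, which rests on 16 to 45 counts a library in GV and 4 to 10 in MIX (fitted log2 fold change -1.78, SE 0.28, a description). TFAM (ENSSSCG00000040185, chr14:92261713-92279731), which packages mtDNA and opens its promoters, was at 0.297, 0.705, 1.00 and 0.488 in GV and 0.378, 1.14 and 2.76 in MIX, overlapped and was not called (0.94, SE 0.45, FDR 0.062). TFAM rests on 5.80 to 36.3 counts a library, and a difference was not detectable at this depth. MTERF2 was the other transcription gene not called (0.08 with TMM, -0.83 with library totals, FDR 0.795 with TMM).

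Of the 6 replication genes, POLG2 was higher, SSBP1 and MGME1 were lower, as was POLG, tested through its GV values, and TWNK and PRIMPOL were not called. Over all genes 30.3% were higher and 37.2% lower. POLG and POLG2 encode the catalytic and the accessory subunit of the same mtDNA polymerase. POLG2 (ENSSSCG00000036057, chr12:14582075-14601576) was at 94.7, 67.1, 67.2 and 49.0 normalised CPM in GV and 222, 259 and 298 in MIX, and the groups were far apart (log2 fold change 1.93, SE 0.13, FDR 4.72e-11; 1.03 with library totals). POLG (ENSSSCG00000001838, chr7:54889150-54907167) was at 0.908, 1.36, 0.621 and 1.05 in GV and 0, 0.0786 and 0.296 in MIX, with 0 counts in 3 MIX libraries. It had 13.0 to 26.5 counts a library in GV and at most 4.4 in MIX, and its fitted log2 fold change of -3.13 (SE 0.47) is a description.

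SSBP1 (ENSSSCG00000016488, chr18:8084292-8167983), which coats single-stranded mtDNA during replication, was at 274, 188, 215 and 137 normalised CPM in GV and 23.4, 26.2 and 31.2 in MIX. Its means were 7.64-fold lower in MIX (log2 fold change -2.89, SE 0.14, FDR 3.26e-13), with no overlap, and it was well counted in every library. TWNK (ENSSSCG00000030428, chr14:112068463-112076169), the helicase of the fork, was at 3.66, 5.59, 6.53 and 5.10 in GV and 5.49, 6.19 and 9.05 in MIX, overlapped and was not called (0.34, SE 0.17, FDR 0.0756; -0.54 with library totals). MGME1, an exonuclease that trims replication ends, was lower by a small amount (-0.43, FDR 0.00645), a call lost without any of 8 libraries, each left out alone. PRIMPOL, a primase-polymerase, did not pass at gene level (0.05, FDR 0.827; -0.84 with library totals).

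RNA processing and stability held both extremes of the nuclear members: 7 of 12 were higher, 3 lower and 2 (TRMT10C and HSD17B10, subunits of mitochondrial RNase P) not called, beside 30.3% and 37.2% of all genes. With library totals 5 were higher and 5 lower, beside 12.1% and 60.5%. SLIRP (ENSSSCG00000028167, chr7:100710472-100718290), a small RNA-binding protein that stabilises mt-mRNAs together with LRPPRC, was at 210, 184, 164 and 142 normalised CPM in GV and 4.16, 5.93 and 10.8 in MIX. No MIX library came near the GV libraries, and the means were 28.1-fold lower (log2 fold change -4.84, SE 0.17, FDR 5.63e-15; -5.74 with library totals). LRPPRC (ENSSSCG00000008452, chr3:96474510-96590706), its partner, was at 71.7, 69.7, 76.7 and 67.7 in GV and 135, 183 and 250 in MIX, all above GV (1.41, SE 0.15, FDR 3.29e-08; 0.52 with library totals, FDR 0.00259).

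FASTKD1 (ENSSSCG00000015933, chr15:75895561-75925289), of the FASTK family of mitochondrial RNA-binding proteins, had the highest log2 fold change of all members, 2.74 (SE 0.21, FDR 1.49e-10; 1.84 with library totals). It was at 127, 60.0, 79.2 and 43.3 normalised CPM in GV and 331, 494 and 630 in MIX, with every MIX library above every GV library. ELAC2 (ENSSSCG00000028465, chr12:57206596-57238438), which cuts the 3′ ends of tRNAs in the precursor, was at 3.80, 8.61, 6.80 and 8.79 in GV and 0.844, 1.19 and 2.13 in MIX (-2.38, SE 0.24, FDR 1.37e-08). PNPT1 and FASTKD2 are named because they were DEGs, after their values were seen. PNPT1, the exonuclease of the mitochondrial degradosome, was at 117, 72.8, 85.1 and 59.0 in GV and 324, 416 and 523 in MIX, and its helicase partner SUPV3L1 at 52.3, 50.4, 47.8 and 44.9 in GV and 116, 146 and 176 in MIX. The genes of the degradosome both rose, by 2.37 (SE 0.15, FDR 1.07e-11) for PNPT1 and 1.57 (SE 0.12, FDR 3.06e-10) for SUPV3L1 on the log2 scale, and with library totals by 1.47 and 0.67. FASTKD2, which binds the large mitochondrial ribosomal RNA, was at 261, 126, 186 and 95.7 in GV and 621, 819 and 932 in MIX (2.37, SE 0.18, FDR 1.51e-10). The log2 fold change of MTPAP, the polyA polymerase, was 1.13 and that of FASTKD5, which acts on precursors that lack tRNA at their ends, was -1.02. FASTKD3 was at 0.63 with TMM and at -0.27 with library totals.

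Of the 8 translation factors, MTIF2 was higher, TUFM, MTIF3, GFM2 and MTRF1L were lower, and GFM1, TSFM and MTRF1 were not called. Over all genes 30.3% were higher and 37.2% lower. With library totals 0 were higher and 7 lower, beside 12.1% and 60.5% of all genes. TUFM (ENSSSCG00000007803, chr3:18521119-18524705), the elongation factor that delivers aminoacyl-tRNA, was at 28.5, 38.2, 34.5 and 46.8 normalised CPM in GV and 4.46, 6.51 and 10.1 in MIX. Its groups were apart and its means 5.51-fold lower in MIX (log2 fold change -2.49, SE 0.17, FDR 5.58e-11). MTIF2 and MTIF3, the initiation factors, moved apart. MTIF3 (ENSSSCG00000037313, chr11:4866017-4880000) was at 15.1, 20.9, 16.0 and 15.8 in GV and 3.65, 7.11 and 8.25 in MIX (-1.34, SE 0.16, FDR 2.42e-07). MTIF2 (ENSSSCG00000008404, chr3:85947617-85989455) was at 3.87, 3.07, 3.45 and 1.72 in GV and 5.17, 7.03 and 10.1 in MIX (1.32, SE 0.23, FDR 2.21e-05; 0.41 and not called with library totals). Of the release factors MTRF1L was -1.27 and MTRF1 0.23 in log2 fold change. GFM1, the elongation factor G, was 0.23, and GFM2, which acts in ribosome recycling, was -0.65.

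Partners that work in the same complex or step, and FASTKD2 with FASTKD5 of the same family, were compared within each library. The measure was the ratio of their TPM, which library scaling leaves unchanged. LRPPRC to SLIRP was 0.0125, 0.0155 and 0.0175 (lowest, median and highest) in GV and 0.720, 1.20 and 2.13 in MIX. By TPM, the SLIRP mRNA thus went from a large excess over LRPPRC to about the same level. Effective lengths of the SLIRP transcripts were 117 to 430 bases, for lengths of 316 to 629, which raises TPM. The level itself is therefore uncertain. TUFM to TSFM, a GTPase and its exchange factor, was 3.38, 7.99 and 15.0 in GV and 0.638, 1.43 and 2.97 in MIX. PNPT1 to SUPV3L1 was 0.864, 1.06 and 1.47 in GV and 1.43, 1.84 and 2.69 in MIX, which overlapped at the edge. FASTKD2 to FASTKD5 was 3.23, 3.93 and 6.98 in GV and 32.7, 41.7 and 99.5 in MIX. POLG2 to POLG has no value in the 3 libraries with POLG at 0.

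**Figure D5:**
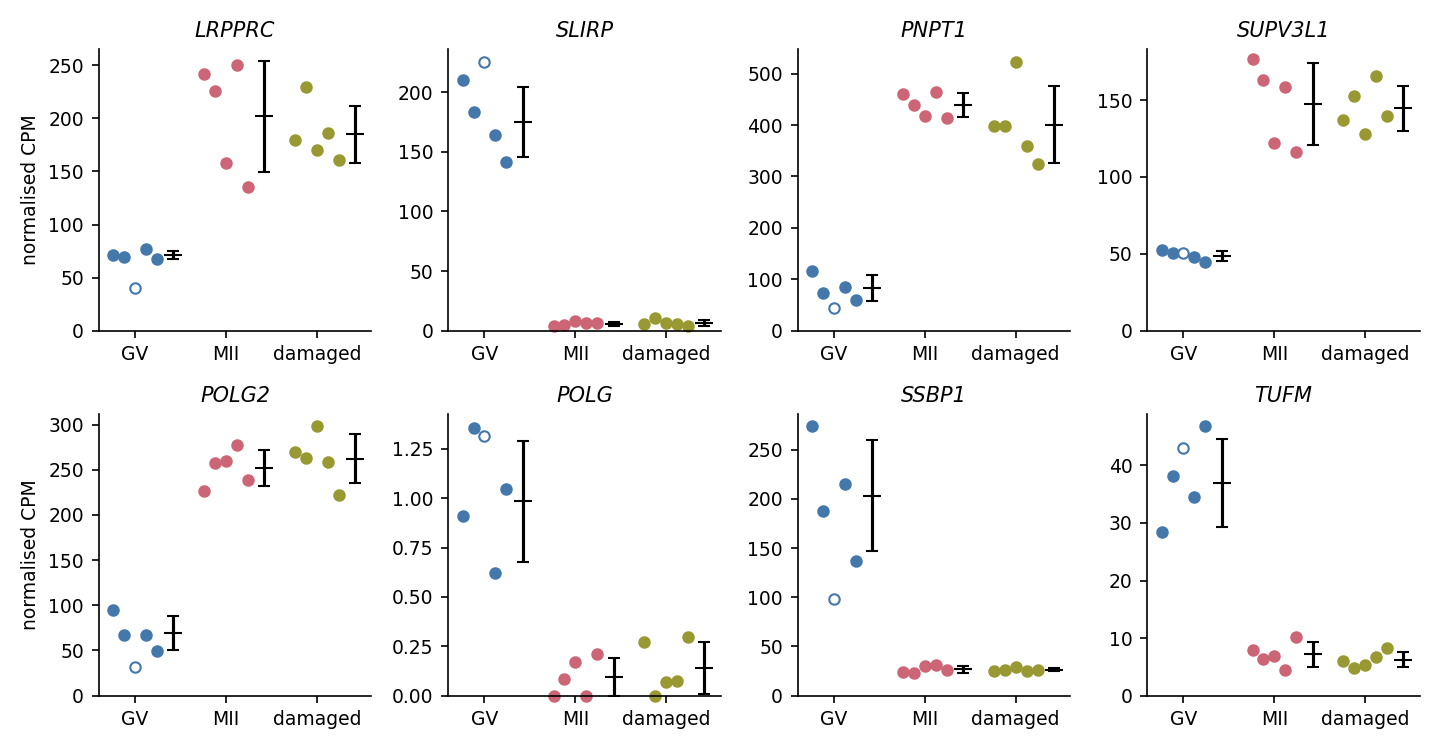
Normalised CPM in each library for the pairs LRPPRC and SLIRP, PNPT1 and SUPV3L1, and POLG2 and POLG, and for SSBP1 and TUFM, which are not partners. Bars are mean ± SD without GV replicate 3, shown as an open circle. LRPPRC is above GV in all 10 MIX libraries (135 to 250 against 67.7 to 76.7) while SLIRP is below (4.16 to 10.8 against 142 to 210).

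Other genes of the pathway, from lists outside the 48, show where the members stand. Of 62 nuclear subunits of complexes I, III, IV and V tested (74 listed), 9 were higher and 43 lower at FDR below 0.01 (limma-voom), beside 30.3% and 37.2% of all genes, and 3 and 52 with library totals, beside 12.1% and 60.5%. They had a median log2 fold change of -1.15 (-2.05 with library totals), in contrast to 1.07 for the mt-mRNAs of the same complexes. By complex the median was -1.43 for complex I (4 higher and 24 lower of 32), -1.34 for complex III (0 and 6 of 8), -0.77 for complex IV (2 and 6 of 10) and -0.64 for complex V (3 and 7 of 12). The extremes were both complex I subunits: NDUFB7 went from 67.4 ± 9.67 (SD, n = 4) to 1.44 ± 0.355 (n = 10) normalised CPM (log2 fold change -5.53, SE 0.17, FDR 1.43e-15), and NDUFB1 from 37.6 ± 6.79 to 101 ± 18.9 (1.43, SE 0.15, FDR 2.69e-08; 0.53 with library totals). Of 43 other genes of mitochondrial gene expression tested, such as ribosomal proteins, tRNA ligases and RNA modifiers, 11 were higher and 23 lower, and 4 and 32 with library totals, with a median of -0.89 (-1.78 with library totals). OSGEPL1, which modifies mitochondrial tRNAs, rose the most, from 14.5 ± 6.23 to 86.2 ± 12.7 normalised CPM (2.68, SE 0.20, FDR 1.65e-10), and the RNA helicase DDX28 fell the most, from 16.2 ± 2.04 to 1.19 ± 0.551 (-3.87, SE 0.23, FDR 3.48e-12).

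MII and 'damaged' oocytes were each set against the same 4 GV libraries. In MII, 21 members were higher and 12 lower at FDR below 0.01, among them 10 mt-mRNAs (28.2% of all genes were higher and 34.2% lower). In 'damaged' 19 were higher and 12 lower, with 8 mt-mRNAs (28.0% and 33.4%). Each comparison held 8 DEGs, 3 upregulated and 5 downregulated, where 4.5% and 17.1% of all genes were called in MII and 4.08% and 16.4% in 'damaged'. With library totals the DEGs were 0 upregulated and 10 downregulated in MII (0.363% and 29.4% of all genes) and 0 and 9 in 'damaged' (0.333% and 27.8%). At FDR below 0.01 they were then 8 higher and 20 lower in MII (10.9% and 57.5%), and 7 higher and 17 lower in 'damaged' (11.2% and 56.0%). Nothing is read from the lower counts, since POLG, POLRMT and MTERF4 were tested through their GV values.

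Whether oocytes without a polar body differ from those with one was tested directly. None of the 47 members was called between MII and 'damaged' by limma-voom, edgeR or DESeq2, as was true of all genes (0.0%), and 0 members had an unadjusted p below 0.05 in any of the 3, where the smallest was 0.0817 (MTRF1, limma-voom). Over all genes 367 had an unadjusted p below 0.05 by limma-voom, 273 by edgeR and 251 by DESeq2. The 95% intervals of the log2 difference stayed within -1 and 1 for 13 of 13 mt-mRNAs (bounds -0.70 to 0.90) and for 30 of 34 nuclear members, where they reached -1.70. The intervals reached 0.26 to either side of the estimate for MTPAP, the narrowest, and 1.19 for POLG, the widest, and differences within them were not detectable.

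GV replicate 3, the shallowest library, stood apart in its mt-mRNAs. They held 11.2% of its estimated counts (Wilson 95% interval 11.2 to 11.3%) and 29.1% of its TPM, and its mt-mRNA counts were 61.5 times those of its nuclear members. All 13 mt-mRNAs were above the other 4 GV libraries, at 3.14 to 5.94 times their mean normalised CPM (30.6% of all genes were above). Of 34 nuclear members 5 were above and 19 below the other 4 (39.7% of all genes were below), with a median ratio of 0.602. Its oocyte markers summed to 7494 and its cumulus and granulosa markers to 22.7 normalised CPM, within the MII range in both. Single markers did not all follow the sums. GDF9 (1156), ZP3 (995), FIGLA (42.2), KPNA7 (1352) and FST (8.47) lay outside the MIX range on the GV side. ZP4, NLRP5 and OOEP lay in the MIX range only, BMP15 in both ranges, and ZP2 and DDX4 below all other libraries. VIM (5.88) and CD44 (4.73) were higher than in any other library. SLIRP was at 225 and LRPPRC at 40.6, also outside the MIX range on the GV side. With all 5 GV libraries in the fit, 3 of 13 mt-mRNAs were called higher in place of 11, beside 4025 of 13113 genes. The DEGs gained POLG2 and TEFM, and the MIX to GV ratio of the mt-mRNA share fell to 0.745 (0.666 by TPM).

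Transcript usage, the fraction of a gene's TPM from each of its transcripts, was tested with limma's diffSplice in the 17 member genes with more than 1 transcript kept. 16 of 48 transcripts in 8 genes were called at FDR below 0.01 and a change in fraction above 0.1, beside 35.2% of all transcripts tested. PRIMPOL, not called at gene level, was the clearest. Its 3583-base transcript (ENSSSCT00000069621.2) made up 0.942 to 0.963 of the gene in GV and 0.304, 0.527 and 0.666 in MIX, with no overlap (mean 0.952 and 0.508, FDR 7.05e-09), while the 2023-base transcript (ENSSSCT00000017189.5) went from 0.00688 to 0.285 and the 2981-base transcript (ENSSSCT00000047174.2) from 0.0413 to 0.207. In MTIF2, ENSSSCT00000058866.3 went from 0.518 (0.348 to 0.617) to 0.00863 (0 to 0.0489, FDR 2.33e-06). The transcript with all of MTRF1L in GV kept a mean of 0.692 of it in MIX (0.338 to 1). It overlapped, since 'damaged' replicates 1 and 3 were at 1 as in GV, and the gene had 24.4 to 86.4 counts a MIX library. The main transcript of HSD17B10 went from 0.835 to 0.583. The other genes called were FASTKD1, FASTKD5, TFAM and TFB1M, and TFAM's call comes from a gene under 1 normalised CPM in most GV libraries.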

How the data were processed

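Libraries were made from polyA RNA with SMART-Seq HT and sequenced single-end. Per the labels, the authors quantified reads with kallisto 0.43 against Sscrofa11.1 and deposited estimated counts and TPM per transcript for each library, and counts per gene in a table of the series. Of that table's 15 columns, 8 had the total of the library they name and 7 did not and were not used; gene counts of every library were rebuilt in the form those 8 columns have, from transcripts matched to genes through them (at least 99.9965% of estimated counts placed): the TPM of a gene's transcripts were summed, multiplied by the gene's mean effective length over libraries and scaled to the library's total. These counts follow TPM and can differ from summed estimated counts, which were an alternative and the base of the mt-mRNA shares and composition. Gene names came from Ensembl identifiers and positions from RefSeq's Sscrofa11.1 annotation.

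These counts were fitted with limma 3.58.1 (voom, TMM factors and filterByExpr of edgeR 4.0.16, R 4.3.3), with GV replicates 1, 2, 4 and 5 against MII and 'damaged' joined, or as 3 groups. DEGs had an FDR (Benjamini-Hochberg) below 0.01 and an absolute log2 fold change above 2, as in the study. The study's methods name no scaling factors, so library totals were run as an alternative, with edgeR's quasi-likelihood test, DESeq2 1.42.0 (both on rounded counts), other filters, a replicate block and each library left out. The fits were tested on simulated data in which most genes were equal between groups and the changed ones rose. Such data cannot test the choice of scaling. Full statistics are given for all mt-mRNAs, for the 3 called members with the largest absolute log2 fold change in each nuclear class, and for TFAM, POLRMT, POLG, TWNK and LRPPRC. The members and lists were chosen with earlier results of these data known. Human libraries of the study were not analysed here.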

Additional observations from a re-analysis of the deposited data

Results flagged for a closer look

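In groups of 5 libraries, GV replicate 3 included, 23 of 156 sets of values had a library far from the others by Dixon's criterion, which chance meets in about 1 of 20 sets. 18 of the 23 were GV replicate 3, which is also the shallowest library. The sets are not independent, since the mt-mRNAs also enter the shares and the ratio. Its mt-mRNAs took 11.2% of estimated counts (2.12 to 3.29% in the other GV libraries) and 29.1% of TPM (5.44 to 8.71%), and their counts were 61.5 times those of the nuclear members (7.45 to 13.7). In normalised CPM 12 of the 13 mt-mRNAs stood apart in it: ND1 at 3436, ND2 at 3941, ND3 at 254, ND4 at 3888, ND5 at 2672, ND6 at 669, CYTB at 2395, COX1 at 24789, COX2 at 7572, COX3 at 7705, ATP6 at 10185 and ATP8 at 508. ND4L was higher in it too, without meeting the criterion. Among nuclear members MTERF4 was high in it, at 3.03 (0.788 to 1.37 in the others), while LRPPRC at 40.6 (67.7 to 76.7) and GFM1 at 11.0 (17.1 to 18.8) were low.

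The 5 other libraries that stood apart each did so in a single gene, and that number is within what the stated rate of chance gives. TFB1M was at 39.8 normalised CPM in 'damaged' replicate 3 (52.9 to 58.1 in the others of its group). FASTKD2 was at 621 in 'damaged' replicate 5 (831 to 904), and MTIF3 was at 3.65 in 'damaged' replicate 1 (7.20 to 8.25). In MII, HSD17B10 was at 10.1 in replicate 5 (5.18 to 5.995) and FASTKD5 at 12.0 in replicate 3 (18.9 to 21.7).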

How the results depend on the processing

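FASTKD1, FASTKD2, PNPT1, SLIRP, SSBP1, TUFM and ELAC2 were DEGs under edgeR, DESeq2, no filter, scaling without mt genes, summed estimated counts and every left-out library. POLG was too, but it was tested through its GV values, so nothing is read from its calls. The same holds for POLRMT and MTERF4 in the lower counts below. Scaling decided most of what changed, and the depth limits what can be said of POLG, POLRMT and TFAM. The cause of the other changes was not tested.

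With library totals, DEGs were 0 higher and 10 lower in MIX and in MII, and 0 and 9 in 'damaged', and calls at FDR below 0.01 were 8 higher and 20 lower in MIX, 8 and 20 in MII and 7 higher in 'damaged'. The median fell to 0.18 for mt-mRNAs and turned to -0.84 for nuclear members. The direction turned in ND1 (-0.40), COX2 (-0.32), ATP6 (-0.024), MTERF2 (-0.83), TWNK (-0.54), PRIMPOL (-0.84), FASTKD3 (-0.27), GFM1 (-0.66), TSFM (-0.87) and MTRF1 (-0.67).

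Same-numbered libraries deviated with a correlation of -0.11 to 0.36, over 0.1 in 5 of 13 pairs. Of 14 libraries, 8 were closest to one of their own number. Neither the labels nor the methods tie a number to a collection, so the main fits leave the libraries unpaired. Whether the numbers pair the libraries was not settled. With a replicate block, 13 mt-mRNAs were called in place of 11 (ND1 and COX2 added), calls of nuclear members stayed at 12 and 13, transcripts called were 13 in place of 16, and PRIMPOL turned to -0.0853. Over all genes 4088 of 13230 were then called higher and 4967 lower in MIX. With the block and library totals, 3 mt-mRNAs were called in place of 0, DEGs were 0 higher and 10 lower in MIX and in MII and 0 and 9 in 'damaged', and calls were 11 higher and 20 lower, 10 and 20, and 9 higher. The medians of mt-mRNAs and nuclear members were 0.30 and -0.89. Over all genes 1647 of 13230 were called higher and 8107 lower in MIX with the block and library totals. Turned values were ND1 -0.23, COX2 -0.16, TFAM -0.22, MTERF2 -0.90, TWNK -0.58, PRIMPOL -0.99, FASTKD3 -0.23, GFM1 -0.55, TSFM -0.87 and MTRF1 -0.78.

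A filter of 10 CPM left 23 nuclear members and no POLG or ELAC2. It gave 3 lower DEGs in MIX, MII and 'damaged' (5 DEGs in 'damaged' in all), 15 higher calls in MIX (6 mt-mRNAs in place of 11), a nuclear median of -0.27, and PRIMPOL -0.27, GFM1 -0.0879 and MTRF1 -0.097. Over all genes 2658 of 7465 were called higher in MIX with this filter. With all 5 GV libraries, higher DEGs were 5 in MIX, 6 in MII and 5 in 'damaged', higher calls were 15, 11 and 12, and the share ratio was 0.745 by counts and 0.666 by TPM. Over all genes 4025 of 13113 were called higher in MIX in that fit. MTERF2 was -0.090 by edgeR and -0.0473 by DESeq2, TSFM -0.022 by edgeR and -0.38 with summed estimated counts, and PRIMPOL -0.17 with the latter.

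With each library left out, DEGs ranged from 8 to 11 in MIX (3 to 5 higher, 5 to 6 lower), 8 to 12 in MII (3 to 6 and 5 to 6) and 8 to 10 in 'damaged' (3 to 5 higher). Without GV replicate 1, POLG2 and TEFM became DEGs, for 5, 6 and 5 higher. Higher calls in MIX ranged from 20 to 24 and lower from 12 to 13, the medians from 0.98 to 1.21 and 0.025 to 0.23, transcripts called from 14 to 17, and the share ratio from 1.10 to 1.26 by counts and 0.94 to 1.08 by TPM. MTERF2 ranged from -0.42 to 0.30, PRIMPOL from -0.019 to 0.15 and TSFM from -0.27 to 0.30. Calls were lost for ND4L (without GV replicates 1, 2 or 5, MII 1, 2 or 4, or 'damaged' 1, 2 or 4), MGME1 (GV 1, 4 or 5, MII 1 or 2, 'damaged' 1, 4 or 5), FASTKD3 (GV 2, 4 or 5), MTERF4 (GV 2) and ND4 (GV 5).

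Chosen after seeing the data, the composition with all 5 GV libraries and by TPM kept COX1, COX2 and ND1 apart, and the MIX to GV ratio of the TPM share was 1.01 without ATP8.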
